A study of Ovis aries with 6 samples.

Results

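S100 proteins are a family of small calcium-binding proteins, and 10 of their genes were followed in sheep stromal vascular cells with and without overexpression of MEOX2, a homeobox gene of mesoderm that encodes a transcription factor. The members were taken by gene symbol from a list of S100A1, S100A4, S100A6, S100A8, S100A9, S100A10, S100A11, S100A12, S100A13 and S100A16. All 10 were found among 26425 genes in the deposited table, and 9 of them passed the filter of 1 FPKM on average, as 13121 genes did. FPKM is a read count scaled to gene length and library size. The stromal vascular fraction is the mixed, non-adipocyte part of adipose tissue that holds fat cell precursors. In the labels the cells are called adipocytes. MEOX2 was overexpressed in 3 of 6 samples; the other 3, labelled NC, are the comparison group. The columns of both groups carry the prefix pHBLV, whose meaning the labels do not give. The sources used here state no breed, age, number of animals, time after the start of overexpression or state of differentiation. Neither do the labels say whether the 3 samples of a group came from separate animals or cultures, so the p-values reflect the spread of these libraries alone, and that spread may be technical.

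An S100 protein carries a pair of EF-hand loops, the helix-loop-helix motif that grips calcium, and usually works as a dimer. Inside cells the calcium-bound dimer opens a groove that holds target proteins such as annexins and myosin. S100A8, S100A9 and S100A12, the calgranulins, are best known from neutrophils and monocytes. They can be secreted, bind zinc and other metals, and act through the receptors TLR4 and RAGE (gene AGER) in inflammation. S100A4, S100A6, S100A10 and S100A11 are typical of fibroblasts and other mesenchymal cells.

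MEOX2 itself stood at 107.7 to 152.7 FPKM in the overexpressing samples and at 9.03 to 10.8 FPKM in NC. The mean was 13.3-fold higher (exact two-sided permutation p = 0.1, which is as small as 3 against 3 libraries can give). Libraries held 11772772 to 12230863 reads recovered from the FPKM values, so a mean of 1 FPKM over a gene as short as an S100 gene rests on few reads. On the first principal component (34.0% of variance) the groups separated, and on the second (22.2%) NC sample 3 was set off from the rest.

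The calgranulins fell with MEOX2, and S100A10 rose. Of the 9 members tested, S100A8, S100A9 and S100A12 were lower, S100A10 was higher, and 5 were not called by limma at an adjusted p of 0.05 over all genes. Over all 13121 genes tested, 2.67% were called in either direction (1.16% lower and 1.51% higher). The median log2 change of the 9 members was -0.20, against -0.00273 over all genes tested. The median was -1.11 for the 3 calgranulins and -0.07 for the other 6 tested members. The difference between these subsets was not tested, because the members were chosen with earlier results of these data known. In 5 of the 9 members the 3 values of one group did not overlap those of the other, 4 lower and 1 higher, against 18.9% of all genes tested (9.33% lower and 9.6% higher).

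**Figure D1:**
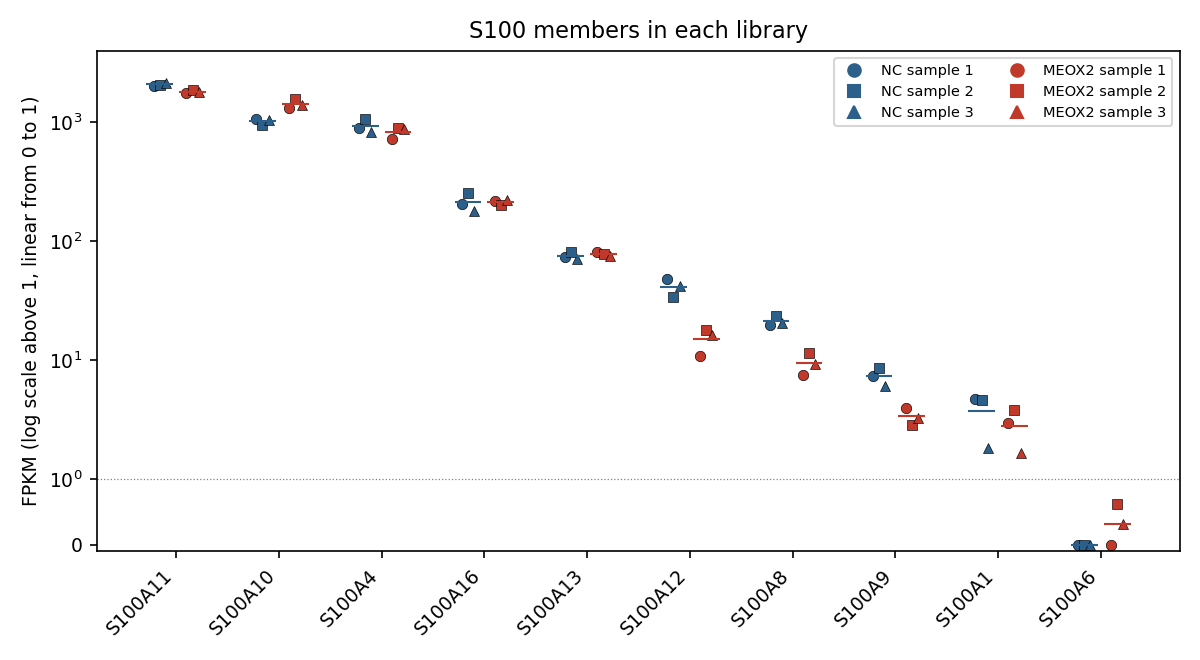
FPKM of the 10 S100 members in each library (log scale above 1 FPKM, linear from 0 to 1), with NC in blue, MEOX2 in red, marker shape for the sample number and a line at each group mean. Levels run from about 2083 FPKM for S100A11 in NC to 0 for S100A6; the red and blue points separate for S100A12, S100A8 and S100A9 (MEOX2 lower), for S100A10 (MEOX2 higher) and, narrowly, for S100A11.

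S100A12, the calgranulin known as a ligand of RAGE, showed the largest change of the members on the log2 scale. It was at 10.7, 17.9 and 16.1 FPKM in MEOX2 samples 1 to 3 and at 48.1, 34.0 and 42.1 FPKM in NC samples 1 to 3. The highest MEOX2 value lay well under the lowest NC value. The group means were 14.9 ± 3.73 and 41.4 ± 7.09 FPKM (SD, n = 3 each), 2.78-fold lower with MEOX2. On the log2(FPKM + 1) scale S100A12 changed by -1.43 (SE 0.19; limma adjusted p = 0.00697). These values rest on 34 to 62 reads in MEOX2 libraries and 116 to 161 in NC. The gene (ENSOARG00000000432) lies on chromosome 1, 102311556 to 102312291, minus strand, by the deposited coordinates, for which the sources used here name no build.

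S100A8, which pairs with S100A9 to form calprotectin, was at 7.47, 11.5 and 9.17 FPKM in MEOX2 samples 1 to 3 and at 19.6, 23.6 and 20.4 FPKM in NC samples 1 to 3. Again the groups did not overlap. The means were 9.37 ± 2.01 and 21.2 ± 2.15 FPKM (SD, n = 3 each), 2.26-fold lower with MEOX2, a log2 change of -1.11 (SE 0.14) with a limma adjusted p of 0.00697. Its reads numbered 25 to 42 with MEOX2 and 69 to 85 in NC. S100A8 (ENSOARG00000000450) lies at 102332237 to 102332680 on the minus strand of chromosome 1.

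S100A9, the other subunit of calprotectin, was the least abundant of the calgranulins. MEOX2 samples 1 to 3 had 3.96, 2.82 and 3.28 FPKM and NC samples 1 to 3 had 7.31, 8.60 and 6.09 FPKM. No MEOX2 value reached the lowest NC value. The means were 3.35 ± 0.576 and 7.33 ± 1.26 FPKM (SD, n = 3 each), 2.19-fold lower with MEOX2, with a log2 change of -0.93 (SE 0.15) and a limma adjusted p of 0.0150. Only 14 to 18 reads with MEOX2 and 30 to 42 in NC stand behind these values. S100A9 (ENSOARG00000000417, 102297137 to 102299291, plus strand) lost its call without MEOX2 sample 2, MEOX2 sample 3, NC sample 1 or NC sample 2 (adjusted p by limma of 0.0515, 0.0618, 0.0655 and 0.0553), whereas S100A8 and S100A12 passed in all 6 such fits, at most reaching a limma adjusted p of 0.0321 and 0.0338. With all low genes kept in the fit, its adjusted p by limma was 0.0621.

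Summed, the 3 calgranulins came to 22.1 to 32.2 FPKM in MEOX2 libraries and 66.2 to 75.0 FPKM in NC. They made up 0.537% to 0.691% of the FPKM of the 10 members with MEOX2 and 1.47% to 1.73% in NC. The order among them was S100A12, S100A8, S100A9 in each of the 6 libraries. The ratio of S100A12 to S100A8 was 1.43 to 1.76 with MEOX2 and 1.44 to 2.46 in NC, so the proportions within the trio overlapped between the groups while the levels did not. In bulk samples such as these, fewer cells of a type and less RNA per cell cannot be told apart.

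**Figure D2:**
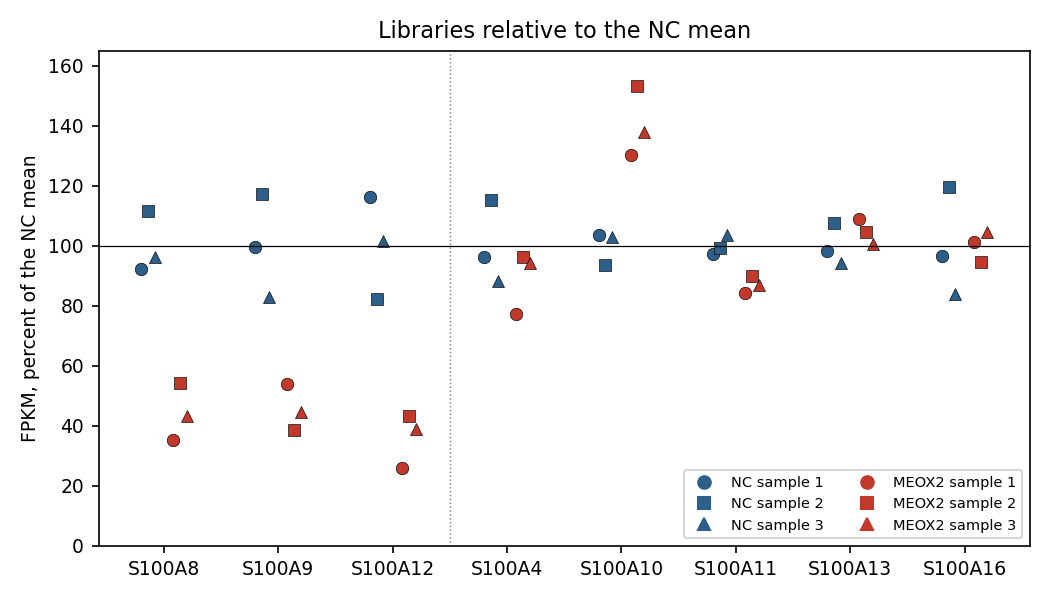
FPKM of each library as a percentage of the NC mean of the same gene, for the calgranulins (left of the dotted line) and 5 abundant members, with NC in blue, MEOX2 in red and marker shape for the sample number. MEOX2 libraries stand at 25.9% to 54.2% for the calgranulins, at 130.3% to 153.4% for S100A10 and at 84.2% to 90.0% for S100A11; S100A4, S100A13 and S100A16 overlap.

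S100A10, also called p11, is the family member whose loops do not bind calcium and which forms a tetramer with annexin A2 at the plasma membrane. It was at 1327, 1562 and 1403 FPKM in MEOX2 samples 1 to 3 and at 1056, 952.5 and 1047 FPKM in NC samples 1 to 3. All MEOX2 values exceeded all NC values. The means were 1430 ± 120.0 and 1018 ± 57.1 FPKM (SD, n = 3 each), 1.40-fold higher with MEOX2, a log2 change of 0.49 (SE 0.09) with a limma adjusted p of 0.0220 and at least 3428 reads in every library. S100A10 (ENSOARG00000021077, chromosome 1, 100863640 to 100867559, minus strand) lost its call without MEOX2 sample 2, MEOX2 sample 3, NC sample 1 or NC sample 2 (adjusted p by limma of 0.0697, 0.0793, 0.0872 and 0.0890). The call was lost too with all low genes kept in the fit (0.0854) and without the intensity trend (0.0537).

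S100A11, a partner of annexin A1 and the most abundant member, had 1754, 1876 and 1809 FPKM in MEOX2 samples 1 to 3 and 2028, 2065 and 2156 FPKM in NC samples 1 to 3. The groups did not overlap, yet the gene was not called: the log2 change was -0.20 (95% interval -0.36 to -0.04), with an unadjusted p of 0.0199 and a limma adjusted p of 0.236. The neighbouring S100A10 and S100A11 differed in sign. Their FPKM ratio, S100A10 to S100A11, was 0.756 to 0.833 with MEOX2 and 0.461 to 0.520 in NC.

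S100A4, which binds non-muscle myosin and is used as a fibroblast marker, was at 717.8, 896.3 and 876.3 FPKM in MEOX2 samples 1 to 3 and at 896.8, 1073 and 821.9 FPKM in NC samples 1 to 3. The groups overlapped (log2 change -0.16, 95% interval -0.44 to 0.11; limma adjusted p = 0.641). S100A16, a widely expressed member, was at 202.2 to 223.9 FPKM with MEOX2 and 179.3 to 255.8 FPKM in NC, with a log2 change of 0.02 (95% interval -0.26 to 0.29). S100A13, which takes part in the release of the growth factor FGF1, was at 75.1 to 81.4 FPKM with MEOX2 and 70.3 to 80.3 FPKM in NC, with a log2 change of 0.07 (95% interval -0.11 to 0.24). Neither S100A16 nor S100A13 was called (limma adjusted p 0.978 and 0.802). The intervals leave room for changes of either sign in all 3 genes.

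The rows of S100A1 and S100A6 had the lowest levels of the members. S100A1, best known from heart and skeletal muscle, was at 2.97, 3.80 and 1.66 FPKM in MEOX2 samples 1 to 3 and at 4.69, 4.60 and 1.82 FPKM in NC samples 1 to 3. Sample 3 was the lowest in both groups, and its values rest on 9 and 10 reads. The log2 change of S100A1, -0.28, had a 95% interval from -0.97 to 0.41 (limma adjusted p = 0.788). S100A6, or calcyclin, was listed at 0 in 4 libraries, with 2 reads in MEOX2 sample 2 and 1 read in MEOX2 sample 3. A count of 0 allows up to 3 reads, or 0.942 to 1.02 FPKM for S100A6 in the libraries at 0, for counting error only. Its row (ENSOARG00000000610, chromosome 1, 102566103 to 102566720) spans 258 bases of gene length and was not tested. Whether that row captures all reads of the gene was not tested, so its place in the order of levels is that of the row alone. No difference was detectable for S100A6 at this depth.

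**Figure D3:**
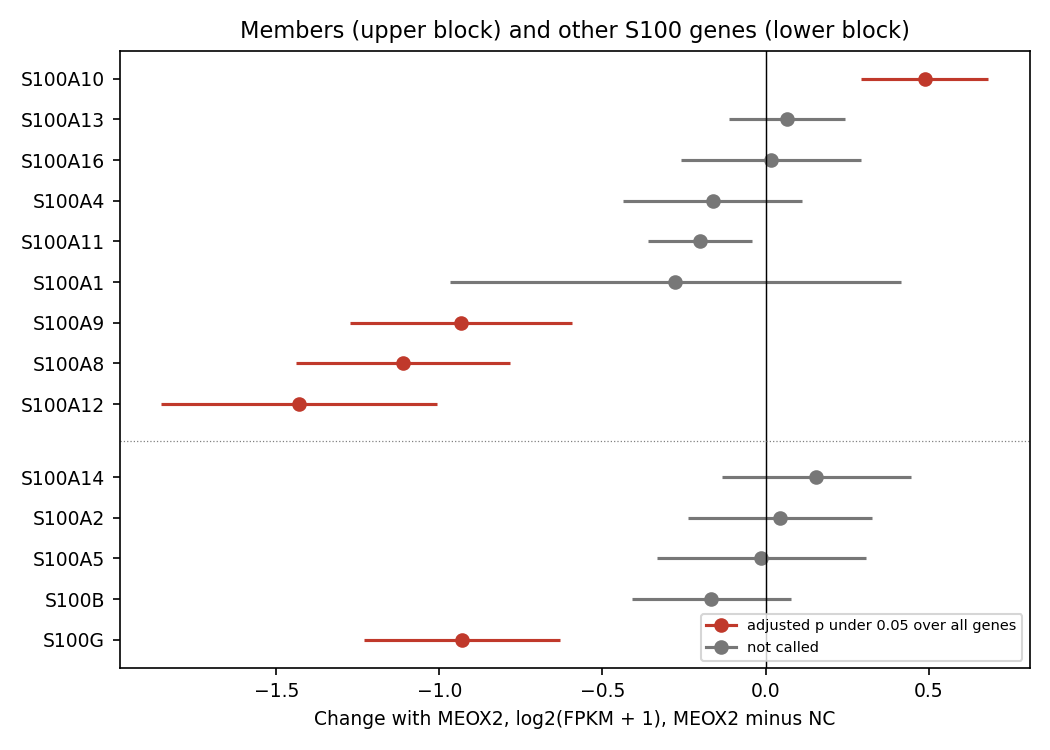
Log2 change (MEOX2 minus NC, log2(FPKM + 1) scale) with its 95% interval for the 9 tested members (upper block) and 5 other tested S100 genes (lower block); red marks an adjusted p under 0.05 over all genes. S100A12, S100A8 and S100A9 lie at -1.43, -1.11 and -0.93 and S100A10 at 0.49, while the other members' points lie between -0.28 and 0.07.

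By level, the members covered a wide range. In NC the order was S100A11, S100A10, S100A4, S100A16, S100A13, S100A12, S100A8, S100A9, S100A1 and S100A6. The NC values of S100A10 and S100A4 overlapped, and no other neighbours in that order did. With MEOX2 the values of S100A10 and S100A4 no longer overlapped, while those of S100A12 and S100A8 did, as did those of S100A9 and S100A1. FPKM is scaled per length, and the gene lengths of all 10 members were multiples of 3, as coding lengths are. By mean FPKM over the 6 samples, S100A11 ranked 40 of all genes in the table, S100A10 ranked 86 and S100A4 ranked 121. S100A12, S100A8 and S100A9 ranked 3523, 5501 and 9264.

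Of the members, 9 lie on chromosome 1 within 1776 kb, from S100A10 to S100A1. S100A9, S100A12 and S100A8 are adjacent there, within 35.5 kb and with no other row between them, S100A9 on the plus strand and the others on the minus strand. The next gene past S100A8 that passed the filter was S100A5, 236.5 kb away, whose group means were 23.7 ± 1.49 (MEOX2) and 24.2 ± 4.85 (NC) FPKM (SD, n = 3 each; log2 change -0.01). None of the 5 rows between S100A8 and S100A5, S100A6 among them, reached the filter. In the whole stretch 12 of 47 rows were tested, and 10 of these 12 carry an S100 name. Of the 12, 3 were lower and 1 was higher, against 1.16% and 1.51% of all genes tested. All 4 of these were members. Because members set the bounds of the stretch, these calls only restate those of the members. S100A13 was on a contig with no chromosome in the table, beside S100A14; by the RefSeq order of genes in ARS-UI_Ramb_v3.0 the pair stands between S100A16 and S100A1.

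**Figure D4:**
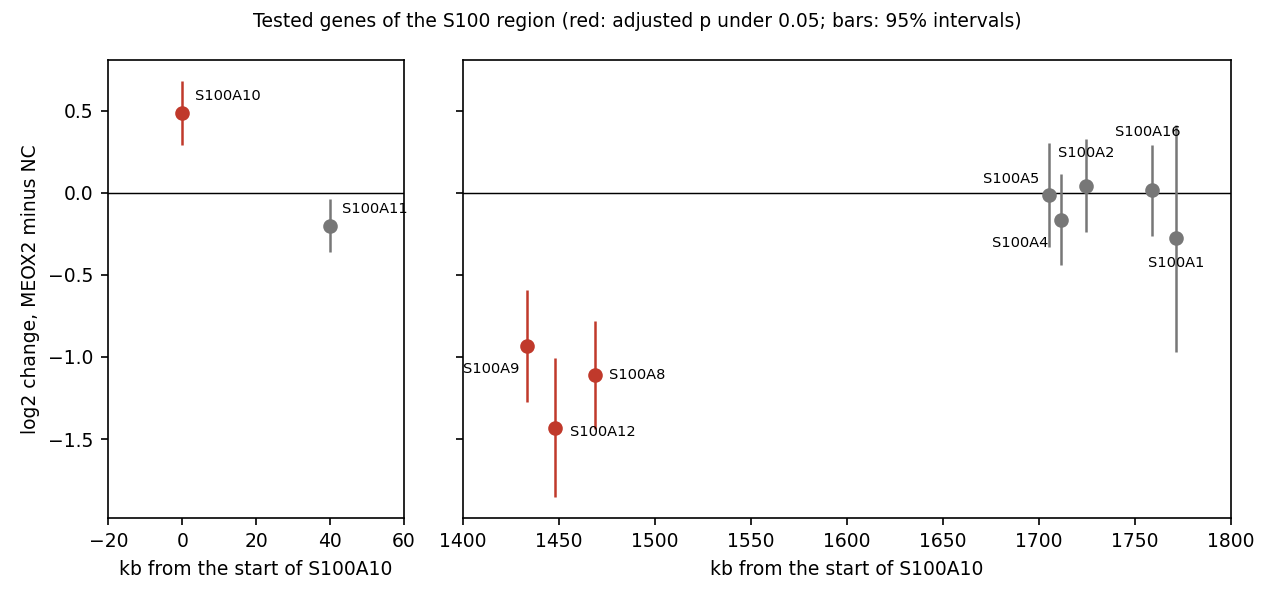
Log2 change of the tested S100A genes between S100A10 and S100A1 on chromosome 1 (S100B, farther along that chromosome, is not drawn) by their start, in kb from the start of S100A10, with 95% intervals; red marks an adjusted p under 0.05, and the axis is broken between the panels. The adjacent S100A9, S100A12 and S100A8 lie between -1.43 and -0.93, S100A5, S100A4, S100A2, S100A16 and S100A1 between -0.28 and 0.04, and 2 tested genes without a symbol (log2 changes -0.03 and -0.05) fall in the stretch left out.

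Of 6 other tested genes on the family list, 1 was called lower and none higher, against 1.16% and 1.51% of all genes tested. S100G, the vitamin D-responsive calbindin of the gut, was at 1.83, 2.01 and 2.04 FPKM in MEOX2 samples 1 to 3 and at 4.51, 4.08 and 5.40 FPKM in NC samples 1 to 3. The groups did not overlap, and the log2 change of S100G was -0.93 (SE 0.13; limma adjusted p = 0.00920). Only 5 or 6 reads with MEOX2 and 12 to 16 in NC stand behind these values. The call of S100G was lost in a limma voom fit of the recovered reads (limma adjusted p = 0.180). S100A2 and S100A14, both best known from epithelia, were at 263.6 ± 24.6 and 212.0 ± 6.87 FPKM with MEOX2 and at 257.3 ± 40.4 and 192.5 ± 35.4 FPKM in NC (SD, n = 3 each). S100B, known from glia and fat cells, was at 129.5 ± 19.8 and 144.5 ± 6.70 FPKM. None of these 3 was called, nor were S100A5 and S100PBP, the latter a binding partner and not an S100 protein.

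NC sample 3 was the lowest of the 6 libraries for S100A13, S100A16, S100A2, S100A14 and S100A5, which are 5 of the 15 genes of the family list and members tested; it was the lowest for 21.5% of all genes tested. Of these 5, S100A5 was at 0.690 times the mean of NC samples 1 and 2 and S100A14 at 0.714 times. Without NC sample 3 the calls of S100A8, S100A9, S100A10 and S100A12 held, with limma adjusted p values of 0.0209, 0.0192, 0.0449 and 0.0237. No member gained a call without that library.

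Receptors and surface partners of S100 proteins were measured beside the members. That list also held the signalling gene MYD88 and the macrophage marker CD68. Of 10 tested genes of that list none was called by limma, and 3 had an unadjusted p under 0.05, as 13.4% of all genes tested did; limma voom on the recovered reads called 0. TLR4, the receptor of calprotectin, averaged 13.1 ± 1.35 FPKM with MEOX2 against 12.2 ± 0.690 in NC, and its co-receptor CD14 was at 117.0 ± 7.01 and 105.2 ± 4.42 FPKM (SD, n = 3 each). LY96, the other partner of TLR4, had a log2 change of -0.21 (limma adjusted p = 0.306), and ALCAM one of 0.32 (0.272). EGFR and CD68 followed by p, with log2 changes of 0.24 and -0.29. AGER, the gene of RAGE, averaged 0.111 FPKM and was not tested. BSG, a further reported S100A9 receptor, was at 830.4 ± 62.5 and 817.0 ± 91.9 FPKM.

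Among the intracellular targets of S100 proteins, 18 rows were tested, and 2 were higher and none lower (1.51% and 1.16% over all genes tested). The log2 change was positive in 15 rows and negative in 3. The groups did not overlap in 7 higher rows and 1 lower (9.6% and 9.33% over all genes tested). An unadjusted limma p under 0.05 was reached by 5 rows (13.4% over all genes tested). Besides the called rows these were TPM1, MYH10 and CACYBP, with log2 changes of 0.26, 0.28 and 0.20. The 2 called rows carry the symbol ACTB (beta-actin) and lie on chromosomes 22 and 3, with log2 changes of 0.92 and 0.50 (limma adjusted p 4.34e-04 and 0.0150). Because 5 rows on different chromosomes carry that symbol, their reads are uncertain. Whether the called rows are beta-actin was not tested. The most abundant ACTB rows were not called. With MEOX2 and in NC, the row on chromosome 11 was at 2199 ± 103.9 and 1999 ± 69.5 FPKM, and that on chromosome 24 at 2081 ± 310.0 and 1893 ± 10.7. The call on chromosome 3 was lost without NC sample 1 or NC sample 2. ANXA2, the annexin that binds S100A10, was at 1608, 1809 and 1613 FPKM in MEOX2 samples 1 to 3 and at 1621, 1676 and 1516 FPKM in NC samples 1 to 3. These values overlapped (log2 change 0.06, 95% interval -0.12 to 0.25); a second row named ANXA2 was at 0 in all libraries. ANXA1, the partner of S100A11, had a log2 change of -0.01 (95% interval -0.18 to 0.15), and MYH9, the myosin chain bound by S100A4, one of 0.11 (95% interval -0.07 to 0.30).

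Inflammatory genes that epithelial and stromal cells make were read from a separate list. Of its 20 tested genes 4 were lower by limma and none higher, against 1.16% and 1.51% of all genes tested. An unadjusted p under 0.05 was reached by 10 of them (13.4% over all genes tested). The groups did not overlap in 7 lower and 3 higher genes (9.33% and 9.6% over all genes tested). The chemokine CCL20 was between 53.6 and 59.8 FPKM with MEOX2 and between 140.3 and 158.1 in NC, and the neutrophil chemokine IL8 at 58.3 to 71.8 and 108.9 to 122.5 FPKM. PTX3, a soluble pattern recognition protein, fell by 0.53 and SOD2, the mitochondrial superoxide dismutase, by 0.41 on the log2 scale. PTX3 lost its call without MEOX2 sample 3, NC sample 1 or NC sample 2 (by limma, adjusted p up to 0.122), and SOD2 without any single library other than NC sample 3 (up to 0.127). Over all 16 alternatives run, PTX3 passed in 12 (limma adjusted p up to 0.130) and SOD2 in 9. IL6 (45.8 ± 8.94 and 51.0 ± 4.13 FPKM) and CEBPB, a transcription factor active in myeloid and fat cells (30.1 ± 3.65 and 35.1 ± 6.45 FPKM), overlapped between the groups. Over the list the median log2 change was -0.15, against -0.00273 over all genes tested. By limma voom on the recovered reads 5 genes of the list were lower, PTGS2 in addition, and 1, TNFAIP3, was higher.

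Neutrophils and monocytes are the cells best known for calgranulins. The myeloid markers listed for them were low in both groups where matched. Of 21 myeloid marker symbols 16 were matched, 3 of these were tested and none was called by limma, while 1 had an unadjusted p under 0.05. The summed level of those matched was 7.09 to 10.5 FPKM with MEOX2 and 7.76 to 9.55 FPKM in NC, overlapping ranges. CD14 and CD68, markers of monocytes and macrophages, were placed in the receptor list and are not in that sum. CD14 was at 117.0 ± 7.01 FPKM with MEOX2 and 105.2 ± 4.42 in NC, and CD68 at 7.57 ± 1.56 and 9.37 ± 0.469. CSF3R and MMP8, defining genes of neutrophils, and ITGB2, an integrin chain of leukocytes, were at 0 in every library, and PTPRC, the gene of the leukocyte antigen CD45, averaged 0.0108 FPKM. CD163, a macrophage receptor, averaged 1.38 ± 0.0442 FPKM with MEOX2 against 2.32 ± 0.420 in NC (SD, n = 3 each). Its 3 MEOX2 values lay below its 3 NC values, with a limma adjusted p of 0.170, while limma voom on the recovered reads called it lower (adjusted p = 0.0134). The part of macrophages in the fall of the calgranulins was not tested.

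Markers of keratinocytes and other epithelia, which can also make calgranulins, summed to 5.54 to 6.07 FPKM with MEOX2 and 7.26 to 7.82 FPKM in NC, lower with MEOX2 like the calgranulins. That gap rested on DSP: the sum of the other markers was 3.41 to 4.34 FPKM with MEOX2 and 3.77 to 4.10 FPKM in NC, which overlap. Of 18 symbols 13 rows were matched and 3 were tested. EPCAM, IVL, KRT1, KRT5 and PKP1 were at 0 in every library. DSP, the gene of the junction protein desmoplakin, was the 1 marker called, at 1.99 ± 0.311 and 3.59 ± 0.112 FPKM (SD, n = 3 each; limma adjusted p = 0.0446), and its call was lost without any single library (up to 0.164). The keratins KRT8 (1.24 ± 0.305 FPKM with MEOX2, 1.08 ± 0.204 in NC) and KRT10 (2.42 ± 0.238 and 2.54 ± 0.430) overlapped between the groups. The part of epithelial cells in the fall of the calgranulins was not tested. Mature adipocyte markers also moved: 5 of 8 tested were lower (ADIPOQ, FABP4, PPARG2, PLIN1 and CIDEC), against 1.16% of all genes tested. Limma voom on the recovered reads called 6 lower, HSL in addition. The summed level of the 10 matched was 128.4 to 150.6 FPKM with MEOX2 and 301.7 to 357.8 FPKM in NC, with LEP at 0 throughout. ADIPOQ, the gene of the hormone adiponectin, fell by 2.23 on the log2 scale, the largest fall of all genes tested (limma adjusted p = 6.02e-05). LPL, the lipase of fat and muscle, averaged 39.7 ± 4.28 FPKM with MEOX2 against 39.5 ± 2.45 in NC and was not called. PLIN1 and CIDEC lost their calls without any single library, which left 3 of these 5 markers called (by limma, adjusted p from 0.0522 to 0.0984 for the lost pair). The part of adipocyte number or maturity in the calgranulin result was not tested.

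The labelled cells were checked against the same lists. Stromal markers were abundant: 12 of 13 were tested, none was called by limma while 6 had an unadjusted p under 0.05 (13.4% over all genes tested) and limma voom called 1, ENG, lower, and they summed to 36081 to 40483 FPKM with MEOX2 and 33793 to 35494 FPKM in NC. Endothelial markers summed to 1.71 to 3.36 FPKM over all 6 libraries. By these sums the stromal markers stood highest, with adipocyte markers present at lower levels. Sums over different genes do not measure the shares of cell types, which were not tested.

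Genes whose levels over the 6 samples most resembled each calgranulin were listed as a description, on the log2(FPKM + 1) scale. For S100A12 they were ACAT1, NXF1, NPTX1, SOD2 and NAPG, with Pearson correlations of 0.989 to 0.996. The closest to S100A8 were TMEM108, EZH2, CHRDL1, SGK1 and FKBP7 (0.981 to 0.989). For S100A9 they were DNMT1, KDELC1, CCBE1, PTPRN and LTBP2 (0.992 to 0.998). The lists share no gene. Of all tested genes, 2.12% to 2.20% reached a correlation of 0.9 with a given calgranulin; all such correlations include the difference between the groups and share the same 6 libraries. Among themselves S100A8 and S100A12 had a correlation of 0.943, S100A8 and S100A9 one of 0.860, and S100A9 and S100A12 one of 0.800. The uncalled S100A11 had correlations of 0.960 with S100A8 and 0.940 with S100A12. S100A10 ran opposite to S100A9 (-0.985), S100A8 (-0.851) and S100A12 (-0.794).

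**Figure D5:**
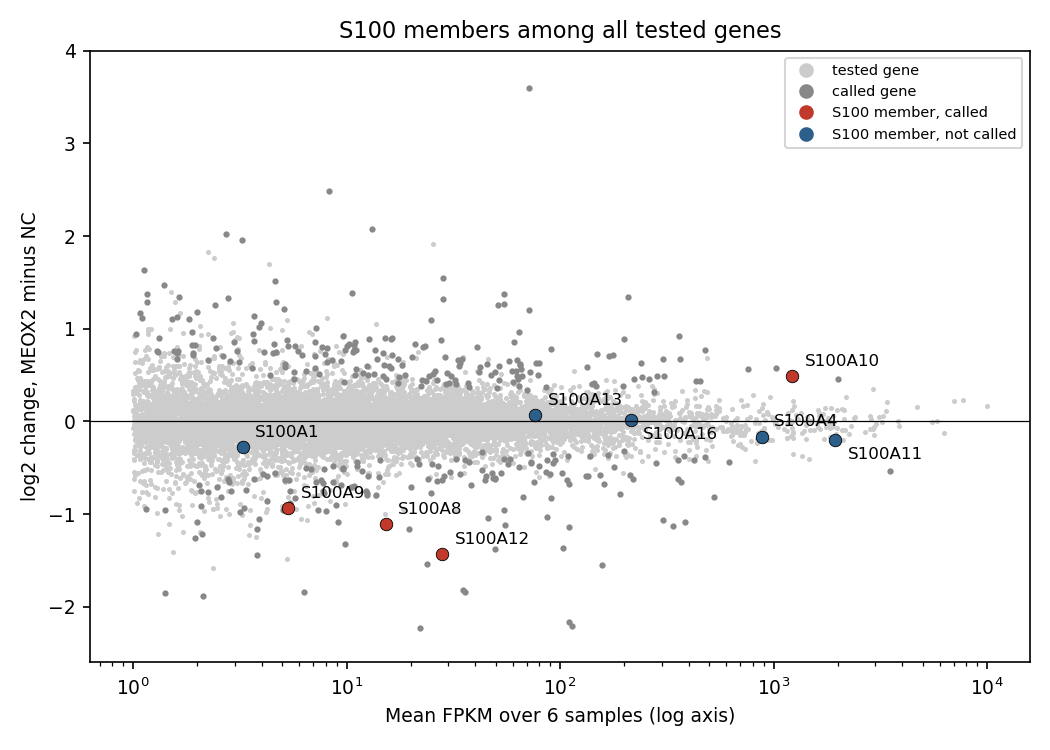
Log2 change (MEOX2 minus NC) against mean FPKM over the 6 samples (log axis) for all 13121 tested genes (light grey), the 350 called genes (dark grey) and the 9 tested S100 members (red where called, blue where not). S100A12, S100A8 and S100A9 lie at the lower edge of genes of their level and S100A10 at the upper edge, among the most abundant genes.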

How the data were processed

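The authors deposited 1 table of FPKM values for 6 libraries; columns were matched to samples by group and replicate number. Per the submitters' processing notes, the authors' tools included HISAT2 2.0.5, DESeq2 1.20.0, featureCounts 1.5.0-p3, CASAVA 1.8 and fastp, with no roles stated. For genome build, annotation and strand setting: not given in the sources used here. FPKM times gene length, divided by a step fitted for each library, gave whole reads for 100% of nonzero values. The tolerance was 0.001 reads or, for large counts, a small fraction of the value. Between replicates, chi-square per gene was 3.62 to 11.8, above the 1 of sampling noise.

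Genes averaging 1 FPKM or more (13121) were fitted on the log2(FPKM + 1) scale with limma 3.58.1 in R 4.3.3 (eBayes with a trend, no covariates), with Benjamini-Hochberg adjustment over all of them at 0.05; such a log2 change understates low genes. The fit was also run on simulated reads with the same dispersion for every gene. That run was not matched to the spread between these replicates, and its outcome is not reported here. Intervals are at 95%. Of 180 list symbols, 144 were matched by symbol, 3 by RefSeq synonym and 33 were not matched. Members and lists were chosen with earlier results of these data known. Named were MEOX2, all members, family genes of at least 1 FPKM, called list genes or otherwise up to 4 of smallest p, the 5 genes most like each calgranulin, and abundant or defining markers. ANXA1, ANXA2, MYH9, TPM1, MYH10, CACYBP, TLR4, CD14, BSG, IL6, CEBPB, AGER, LPL, PTGS2, TNFAIP3, KRT8, KRT10 and markers at 0 were also named, after their values were seen. Alternatives are in the closing section. Python 3.11.15, numpy 2.4.6, pandas 2.3.3, scipy 1.17.1 and matplotlib 3.10.9 were used for the rest. Some genes of the lists are not reported here.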

Additional observations from a re-analysis of the deposited data

How the results depend on the processing

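No called member changed sign (of the others, S100A16 took both signs), and MEOX2, S100A8 and S100A12 passed the threshold in all 16 alternatives run. The log2 change of S100A12 ranged from -1.57 to -1.22, of S100A8 from -1.25 to -0.97, of S100A9 from -1.11 to -0.83 and of S100A10 from 0.42 to 0.54. The number of members called, 4, was 2 without a filter on low values, where 18740 genes were tested, and 2 to 4 with single libraries left out. It was 2 without MEOX2 sample 2 or 3 or NC sample 1 or 2. The number of genes called, 350, was 194 without the filter, 574 by limma voom on recovered reads (added after seeing the data) and 112 to 280 with single libraries left out: 185, 195 and 129 without MEOX2 samples 1, 2 and 3 and 112, 181 and 280 without NC samples 1, 2 and 3. Fits with a library left out have fewer samples. The log2 change of MEOX2 was 3.49 to 3.74 over these alternatives.

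With the replicate number as a block, 242 genes and 3 members were called, S100A10 losing its call (limma adjusted p = 0.0577). Same-numbered samples did not deviate together (correlations of -0.07, 0.02 and -0.00417 over 13121 genes), and not every sample correlated best with its own number, so the numbers were not taken as pairs. Planned count models in edgeR and DESeq2 were not run, because the deposited values are FPKM and not counts. Limma voom on the reads recovered from them was run in their place. Low read counts limit S100A9, S100A1, S100A6 and S100G most, which rest on fewer than 50 reads per library. For S100A6, whether its row captures all reads of the gene was not tested.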

Other observations

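Other small EF-hand proteins outside the S100 family were compared as a further group. Of 15 tested, 1 was called higher with MEOX2, against 1.51% of all genes tested. It was MYL9, the regulatory myosin light chain of smooth muscle and other contractile cells. Its means were 162.0 ± 4.67 FPKM with MEOX2 and 121.7 ± 2.29 in NC (SD, n = 3 each); on the log2 scale it rose by 0.41 (limma adjusted p = 0.0152). The remaining 14 were not called. MYL9 lost its call without MEOX2 sample 1 or 3 or NC sample 1 or 2 (limma adjusted p up to 0.0992). The median log2 change of the group was 0.05. This group was described after its values were seen.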
